A study of Homo sapiens with 2 samples.

Results

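Chromatin accessibility was examined at 10 genes in the CAMA-1 breast cancer cell line, namely the 7 genes that encode inhibitors of cyclin-dependent kinases (CDKN2A, CDKN2B, CDKN2C, CDKN2D, CDKN1A, CDKN1B and CDKN1C) and 3 neighbours of CDKN2A and CDKN2B on chromosome 9p21 (MTAP, KLHL9 and DMRTA1). The genes were chosen by name among 20033 protein-coding genes, and the peaks assigned to them overlapped a GENCODE gene body or the 20 kb on either side of it. These loci held 109 of 245736 peaks in replicate 1 and 109 of 259745 peaks in replicate 2. The peaks came from ATAC-seq, a sequencing assay of accessible chromatin that relies on the Tn5 transposase to cut and tag DNA not covered by nucleosomes. The only group was CAMA-1 without treatment, an established line grown as an adherent culture in DMEM with fetal bovine serum, in 2 biological replicates of 50000 cells, and conditions were not compared.

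The label of the cells as epithelial breast cells was set against marker genes. All 8 epithelial and luminal markers had a peak within 1 kb of a transcription start site (TSS) in both replicates, beside 79.3% of all protein-coding genes. Among them were KRT8, with a fold enrichment of 140.1 in replicate 1 and 147 in replicate 2, and ESR1, the estrogen receptor gene, with 31.3 and 32.5. Among markers of other cell types, PTPRC, CD3E, SPI1 and PECAM1 had no such peak, while COL1A1, COL3A1, PDGFRB and VWF had one. COL1A1, at 73.4 and 67.2, and PDGFRB, at 64.7 and 67.2, lay above ESR1. COL3A1, at 8.28 and 12.4, and VWF, at 28.3 and 28.7, lay below it. A TSS peak is a measure of accessibility and not of expression. The lists give no read totals, and the estimated background was 3.35 stacked reads in replicate 1 and 3.52 in replicate 2.

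Cyclin-dependent kinases bound to cyclins drive cells from the G1 phase into DNA replication by phosphorylating the retinoblastoma protein. INK4 proteins (p16INK4a from CDKN2A, p15 from CDKN2B, p18 from CDKN2C and p19 from CDKN2D) bind CDK4 and CDK6 alone, whereas the CIP/KIP proteins (p21 from CDKN1A, p27 from CDKN1B and p57 from CDKN1C) bind a wider range of cyclin-kinase complexes. CDKN2A has a separate upstream start for p14ARF, which binds MDM2 and thereby stabilizes p53, and the 9p21 segment with CDKN2A, CDKN2B and MTAP is a frequent site of homozygous deletion in cancer.

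The promoters on which the comparison of starts turns are shown from RefSeq (GRCh38.p14), each as the 250 bases before the start. All 12 promoters listed for 9 of the 10 genes were identical to hg38 at their positions. Capitals mark the GC box GGGCGG on either strand, including overlapping matches, and each sequence reads 5′ to 3′ on the strand of its gene. The first 2 are the starts of CDKN2A for p16INK4a (chr9:21974858-21975107, minus strand) and p14ARF (chr9:21995325-21995574, minus strand). They are followed by CDKN2B (chr9:22009306-22009555, minus strand), DMRTA1 (chr9:22446574-22446823, plus strand), which had the weakest TSS peak of the 10 genes, and CDKN1A (chr6:36678464-36678713, plus strand), which had one of the strongest.
CDKN2A, p16INK4a start: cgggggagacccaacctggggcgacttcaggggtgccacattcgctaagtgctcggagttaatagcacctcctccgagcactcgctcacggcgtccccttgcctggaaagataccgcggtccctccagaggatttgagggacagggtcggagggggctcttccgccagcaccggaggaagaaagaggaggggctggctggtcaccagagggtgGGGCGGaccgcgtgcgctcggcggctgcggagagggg
CDKN2A, p14ARF start: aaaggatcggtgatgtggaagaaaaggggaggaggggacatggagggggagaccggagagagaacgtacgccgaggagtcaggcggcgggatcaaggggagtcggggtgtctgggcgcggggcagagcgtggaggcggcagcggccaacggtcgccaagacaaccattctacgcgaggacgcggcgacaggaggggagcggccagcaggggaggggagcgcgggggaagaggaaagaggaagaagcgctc
CDKN2B: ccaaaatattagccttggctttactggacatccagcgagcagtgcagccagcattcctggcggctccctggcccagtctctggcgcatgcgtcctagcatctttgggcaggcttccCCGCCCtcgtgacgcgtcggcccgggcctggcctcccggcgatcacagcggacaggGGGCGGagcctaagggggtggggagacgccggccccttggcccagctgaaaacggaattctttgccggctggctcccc
DMRTA1: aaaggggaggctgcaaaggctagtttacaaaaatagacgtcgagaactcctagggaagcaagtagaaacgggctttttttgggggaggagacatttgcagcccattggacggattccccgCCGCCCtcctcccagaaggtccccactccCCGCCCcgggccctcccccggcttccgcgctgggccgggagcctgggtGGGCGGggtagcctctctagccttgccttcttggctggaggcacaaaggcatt
CDKN1A: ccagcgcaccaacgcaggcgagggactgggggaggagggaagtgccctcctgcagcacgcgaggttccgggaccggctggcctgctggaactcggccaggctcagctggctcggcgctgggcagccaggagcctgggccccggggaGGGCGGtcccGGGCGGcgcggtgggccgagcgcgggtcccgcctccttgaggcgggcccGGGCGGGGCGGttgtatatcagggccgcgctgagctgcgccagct

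All 10 genes had a TSS peak in both replicates, where 79.3% of all protein-coding genes had one (15890 of 20033). Counted at the most 5′ start of each gene alone, 8 of the 10 genes had one, without CDKN1A and CDKN1B, beside 71.7% of all protein-coding genes. Among the 50000 strongest peaks of each list, 8 had one, without CDKN1C and DMRTA1, beside 61.4% of all. The strength of a peak is given as its fold enrichment, the ratio of reads stacked at the peak to a genome-wide background as the peak caller MACS2 computed it. Among coding genes with a TSS peak, the median fold enrichment of the strongest one was 51.1 in replicate 1 and 52.6 in replicate 2, with quartiles of 26.9 and 82.1 in replicate 1 and 27.4 and 83.8 in replicate 2. CDKN2D and CDKN1A lay above the upper quartile in both replicates, and CDKN1C and DMRTA1 lay below the lower quartile in both.

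Among the INK4 genes, the strongest start was that of CDKN2D (ENSG00000129355.7, chr19:10566460-10569059), at 114.4 in replicate 1 and 96.6 in replicate 2 (105 ± 12.5, SD, n = 2). CDKN2B (ENSG00000147883.12, chr9:22002903-22009305) reached 60.3 and 69.4 (64.9 ± 6.47, SD, n = 2). CDKN2C (ENSG00000123080.12, chr1:50960745-50974634) reached 54.8 and 61.0 (57.9 ± 4.43, SD, n = 2). The CDKN2C peak was shared with the start of FAF1, 478 bp away, and ATAC-seq has no strand by which to divide it. CDKN2A (ENSG00000147889.18, chr9:21967752-21995301) reached 38.9 and 39.6 at its strongest start (39.2 ± 0.492, SD, n = 2). The values of CDKN2A lay below those of the other 3 INK4 genes in both replicates. For CDKN2C this rests on the peak shared with FAF1. A second region at other starts of CDKN2C reached 39.1 in replicate 1 and 38.9 in replicate 2. CDKN2A lay below that region in replicate 1 and above it in replicate 2.

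Among the CIP/KIP genes, CDKN1A (ENSG00000124762.14, chr6:36676460-36687337) reached 102.4 and 95.7 (99.1 ± 4.70, SD, n = 2). CDKN1B (ENSG00000111276.12, chr12:12685498-12722369) reached 45.3 and 48.6 (47.0 ± 2.35, SD, n = 2). CDKN1C (ENSG00000129757.15, chr11:2883213-2885775) reached 24.4 and 23.0 (23.7 ± 0.985, SD, n = 2). These 3 genes kept the same order in each replicate, with no overlap of their values.

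Among the neighbours on 9p21, MTAP (ENSG00000099810.21, chr9:21802636-21937651), which encodes the methylthioadenosine phosphorylase of the methionine salvage pathway, reached 66.5 and 79.2 (72.8 ± 8.96, SD, n = 2). KLHL9 (ENSG00000198642.7, chr9:21329665-21335404), which encodes an adaptor of a CUL3 ubiquitin ligase, reached 38.7 and 46.7 (42.7 ± 5.66, SD, n = 2). DMRTA1 (ENSG00000176399.4, chr9:22446824-22455740), which encodes a DM-domain protein, reached 8.74 and 9.95 (9.35 ± 0.854, SD, n = 2). DMRTA1 lay far below the other 9 genes in both replicates.

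In order of the mean, neighbours whose replicate values overlapped were CDKN2D and CDKN1A, MTAP and CDKN2B, CDKN2B and CDKN2C, CDKN1B and KLHL9, and KLHL9 and CDKN2A. CDKN1A and MTAP, CDKN2C and CDKN1B, CDKN2A and CDKN1C, and CDKN1C and DMRTA1 did not overlap. With 2 replicates and different stretches of DNA, these orders are descriptions, and no test was made between genes. Fold enrichment is taken over a genome-wide background, so the number of copies of a gene and the accessibility of each copy cannot be told apart.

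**Figure D1:**
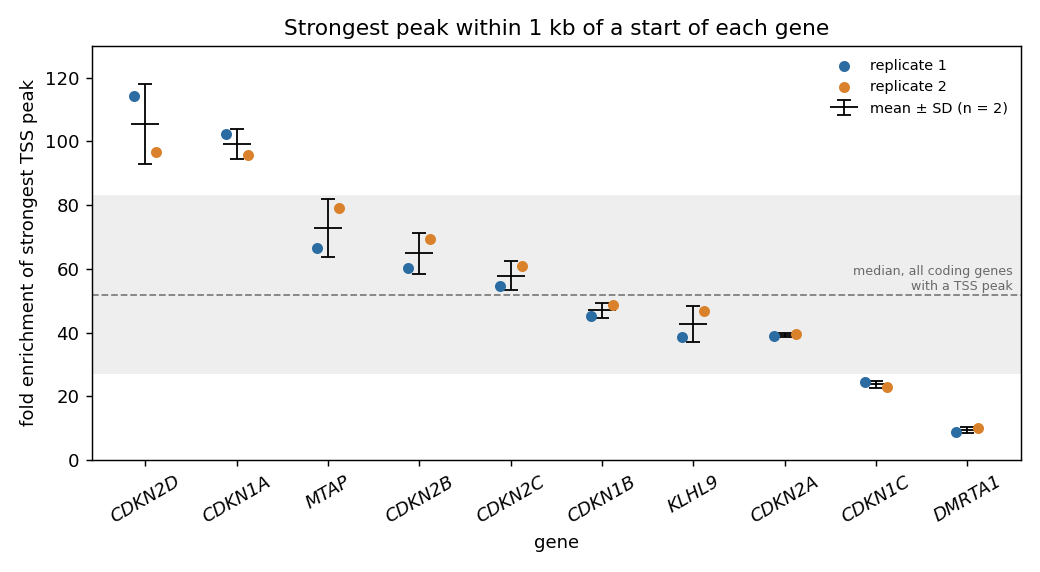
Fold enrichment of the strongest peak within 1 kb of a start (vertical axis, linear, starting at 0) for each of the 10 genes (horizontal axis), with 1 point per replicate, bars for the mean ± SD (n = 2), a dashed line for the median over all coding genes with a TSS peak and a grey band for their quartiles. CDKN2D and CDKN1A lie above the band at means of 105 and 99.1, and CDKN1C and DMRTA1 lie below it at 23.7 and 9.35.

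Accessibility differed between the starts of CDKN2A. At the p16INK4a start, the peak had a fold enrichment of 10.4 in replicate 1 and 9.51 in replicate 2, from heights of 44 stacked reads (95% exact Poisson interval 32.0 to 59.1) and 42 (30.3 to 56.8). At the p14ARF start, 20444 bp upstream, it had 38.9 and 39.6, from heights of 168 (143.6 to 195) and 178 (153 to 206). The p14ARF start exceeded the p16INK4a start 3.76-fold in replicate 1 and 4.16-fold in replicate 2 (3.96 ± 0.288, SD, n = 2), and the intervals of the heights did not overlap in either replicate. Intervals of this kind cover counting error only.

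The p16INK4a peak was 704 bp wide in replicate 1 and 648 bp in replicate 2, and stood at the percentiles 9.56 and 9.08 of the strongest TSS peaks of coding genes. The p14ARF peak was 2359 and 2325 bp wide, at the percentiles 37.7 and 37.6. It also covered the start of CDKN2B-AS1 (ENSG00000240498.9, chr9:21994139-22128103, plus strand), a long noncoding RNA that runs away from CDKN2A past CDKN2B, so its reads cannot be assigned to one of the 2 genes. Thus a TSS peak of CDKN2A was called at both starts, and the value of 39.2 given above for the gene was that of the p14ARF start.

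Both of these promoters were rich in CpG. In the 300 bases from 250 before to 50 after the start, the p16INK4a promoter had 69.0% G and C and the p14ARF promoter 63.3%, and the ratio of observed to expected CpG was 0.764 and 1.13. A promoter was called CpG-rich with at least 50% G and C and a CpG ratio of at least 0.6. Of 11177 CpG-rich RefSeq promoters with a peak in both replicates, 392 (3.51%) had a mean fold enrichment at or below the 9.93 ± 0.598 (SD, n = 2) of the p16INK4a promoter, and their median was 56.1. Of the 13080 CpG-rich promoters, 85.5% had at least 1 base under a peak in both replicates, and of all 21613 promoters 66.0% did.

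The 12 RefSeq promoters of these genes all had at least 1 base under a peak in both replicates, and 9 of them were CpG-rich. The GC box GGGCGG was found in 9 of 12 (54.2% of all RefSeq promoters of the same length), the CCAAT box CCAAT in 5 of 12 (33.0%), the E-box CACGTG in 2 of 12 (7.38%) and the TATA box TATAAA in 1 of 12 (8.99%), on either strand. Both promoters with an E-box belonged to a single gene, CDKN2C, and the 12 promoters came from 9 genes. No match was found to TGACGTCA (2.04% of all promoters), to the E2F letters TTTGGCGC (0.699%) or TTTCGCGC (0.615%), or to the palindromic estrogen response element, searched with any letters in its spacer (0.0324%). The p14ARF promoter held no GC box, and the p16INK4a promoter, which had the weaker peak, held 1. DMRTA1 held 3 GC boxes in the stretch shown above under peaks of 4.60 and 4.42, whereas CDKN1A held 4 under peaks of 102.4 and 95.7.

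At DMRTA1, accessibility was higher at the end of the gene than at its start. The peak directly over the start had a fold enrichment of 4.60 and 4.42, and the stronger TSS peak of 8.74 and 9.95 began 476 bp inside the gene in replicate 1 and 474 bp inside it in replicate 2. A region in the last exon (chr9:22455013-22455731), 8548 bp from the start, reached 48.8 in replicate 1 and 49.8 in replicate 2 (49.3 ± 0.689, SD, n = 2). A further region past the gene (chr9:22469943-22470270) reached 25.5 and 29.4. The start was the weaker in both replicates.

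At CDKN1A, the region over the start was 3524 bp wide (chr6:36677675-36681198), wider than 99.7% of all regions called in both replicates. It covered 5 of the 8 annotated starts, including the start of the MANE Select transcript, the reference transcript of a gene. The 3 upstream starts at positions 36676460 to 36676528 lay under a peak of 3.45 in replicate 1 (height 14) and under none in replicate 2. A separate region in an intron (chr6:36682304-36683511), 4136 bp from the nearest start, reached 55.5 and 55.3 (55.4 ± 0.121, SD, n = 2).

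CDKN1A is a textbook target of p53, which binds pairs of half-sites of 10 letters. The consensus, named here only as the p53 element, was searched in the loci with both half-sites side by side, at most 2 of 20 letters off and the core letters kept. In the CDKN1A locus 2 elements were found, the distal one at chr6:36667258-36667277 (11446 bp before the MANE Select start, 1 letter off) and the proximal one at chr6:36676449-36676468 (2255 bp before it, 2 letters off). Distal and proximal give only the order of these 2 matches by distance from that start, and are not the names of published sites. Both elements are shown on the plus strand, with the core letters of each half-site in capitals.
CDKN1A, distal element: agaCAAGcccgggCAAGgcc
CDKN1A, proximal element: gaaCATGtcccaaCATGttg

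The distal element lay under a peak of 3.68 in replicate 1 (height 15) and 5.97 in replicate 2 (height 26). The proximal element lay under the peak of 3.45 that only replicate 1 had, and in replicate 2 the nearest peak was 1234 bp away. Both were thus weak beside the 99.1 over the main start. Matches in the loci of CDKN2A, CDKN2B, CDKN2C, CDKN1B and MTAP lay under no peak in either replicate. The match of CDKN2A and that of CDKN2B are the same element, as their loci overlap. Of the 95 regions in the loci called in both replicates, 1 held an element in the 300 bp about its midpoint (1.05%), beside 0.213% of all 215195 regions. A match of letters says nothing about binding in these cells.

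At CDKN1B, the peak over the MANE Select start lay beside a region of 24.4 and 20.8 within 1 kb of the start at 12715058, and a region farther upstream (chr12:12695791-12696384) of 19.6 and 15.9 covered the starts at 12696347 and 12696359. That region also held the start of GPR19, and its reads cannot be divided between the genes. At CDKN1C, an imprinted gene that is expressed mainly from the maternal copy, the TSS peak was weaker than several other regions of its locus. The region 2862 bp upstream (chr11:2888374-2888900) reached 44.6 and 43.1 (43.9 ± 1.07, SD, n = 2), and that 6810 bp upstream (chr11:2891909-2893262) reached 37.0 and 34.9 (36.0 ± 1.49, SD, n = 2). The TSS peak of 24.4 and 23.0 lay below both in each replicate. It also lay below a region past the gene (chr11:2877502-2877899), at 31.3 and 31.8. The strongest region of the locus, at 62.8 and 61.0, covered a start of SLC22A18 farther upstream (chr11:2901485-2903023).

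At CDKN2C, a second region of 2385 bp (chr1:50967985-50970369) covered the starts at 50968706 and 50970245, with a fold enrichment of 39.1 in replicate 1 and 38.9 in replicate 2. In replicate 2 it was called as separate peaks, and the one over the start at 50970245, the MANE Select start, had 26.3. The strongest start of CDKN2C was therefore the upstream one that it shares with FAF1. At CDKN2D, 16 regions were called in both replicates, 37.6 per 100 kb, the highest density of the 10 loci. Several of these lay at starts of its close neighbours, such as KRI1 at 43.0 and 36.9 and AP1M2 at 29.5 and 32.1.

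**Figure D2:**
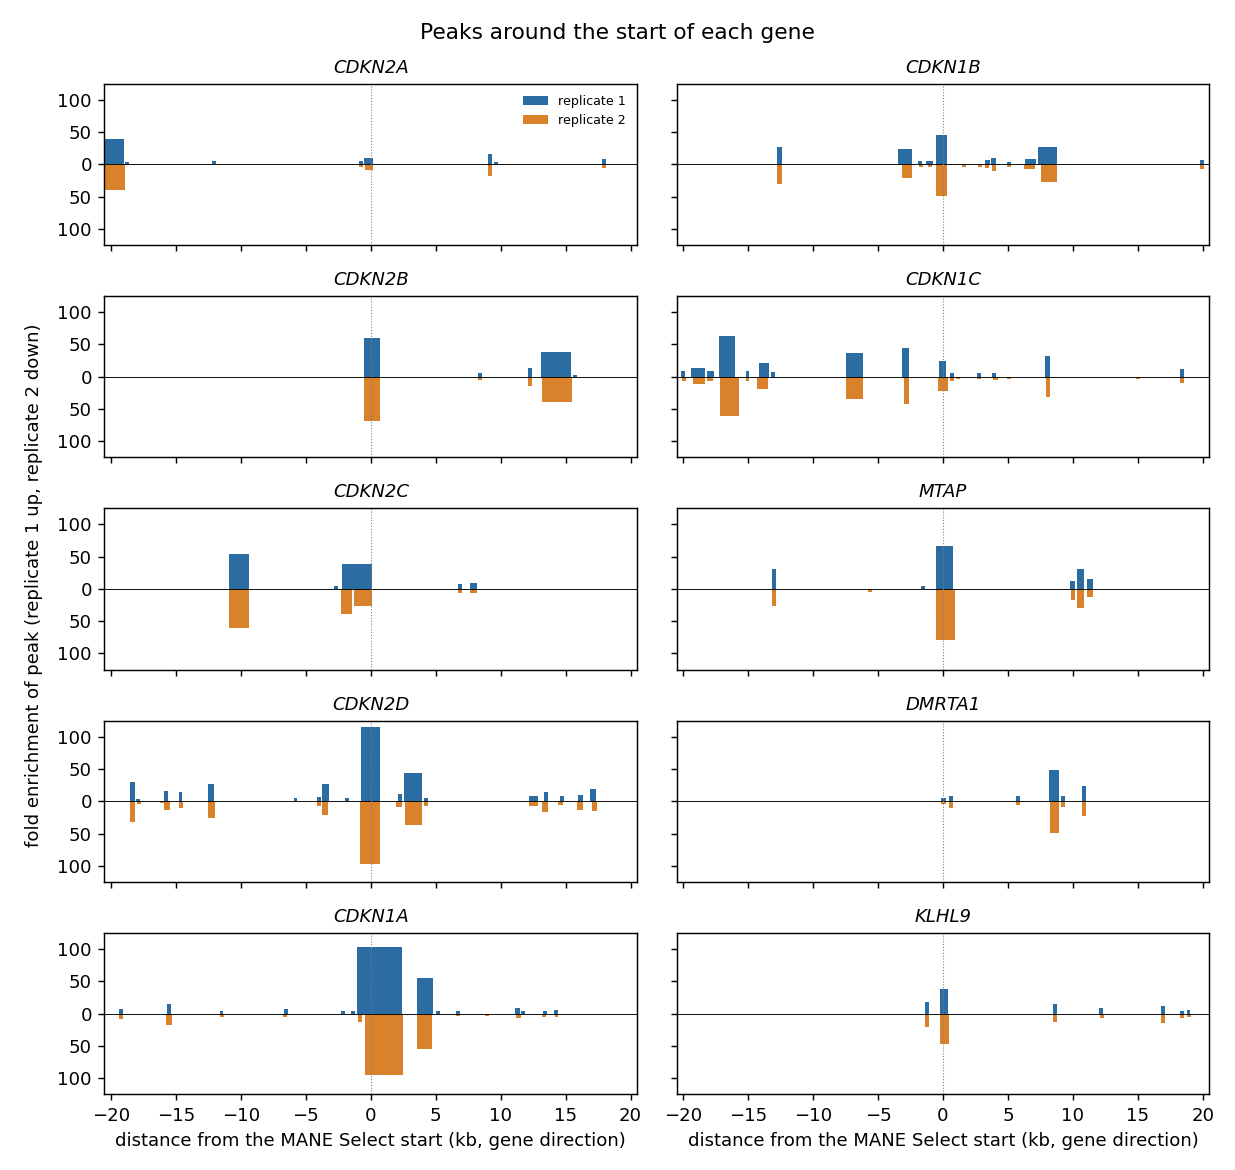
Peaks within 20 kb of the MANE Select start of each gene, with the distance in kb in the direction of the gene on the horizontal axis and fold enrichment on the vertical axis (replicate 1 upwards, replicate 2 downwards), where the width of a bar is the width of the peak. The peak at the zero line is tall at CDKN2D and CDKN1A and low at CDKN2A, whose p14ARF start lies 20444 bp to the left, and at DMRTA1, whose strongest region lies 8548 bp to the right.

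Whether 9p21 lacks peaks over a long stretch, as a homozygous deletion would leave it, was examined from 20 kb before KLHL9 to 20 kb past DMRTA1 (chr9:21309665-22475740). This window of 1166076 bp held 66 regions called in both replicates, or 5.66 per 100 kb, where the genome had 7.33. Their median fold enrichment was 11.4 in replicate 1 and 11.8 in replicate 2, beside 9.66 and 9.95 over all regions called in both. Each of the 12 bins of 100 kb that the window touches held at least 1 region (range 1 to 10, median 6), and 9.71% of such bins in the genome held none. No stretch without peaks covered the whole of any of the 5 genes on 9p21.

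The longest stretch without a peak in either replicate that touched the window was 104.7 kb long (chr9:21591976-21696697). It lay between KLHL9 and MTAP, held no start of a protein-coding gene and overlapped only the pseudogenes H3P30 and KHSRPP1 in the annotation. The regions on its edges had a fold enrichment of 16.8 and 21.9 on the left and 5.06 and 6.41 on the right. The nearest coding genes with a TSS peak were KLHL9, 256572 bp to the left, and MTAP, 105939 bp to the right. A second stretch, of 101.6 kb (chr9:21479451-21581030), lay close by on the left, also between KLHL9 and MTAP.

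Stretches as long as the longest, of 104.7 kb, were also found elsewhere. Of 278809 stretches without peaks on chromosomes 1 to 22 and X, 2161 (0.775%) were at least as long, and together they held 12.1% of the bases. Chromosome 9 alone had 99, the longest of 719 kb, and 4.66% of coding genes had a start inside such a stretch, where none of the 10 genes did. For the 5 genes on 9p21 this was fixed by the length chosen, since the longest stretch touching the window held no coding start. At a share this low, so few genes could hold none in any case. The median stretch in the window was 6.92 kb long and that over the genome 3004 bp. Loss of some but not all copies of 9p21 was not tested.

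**Figure D3:**
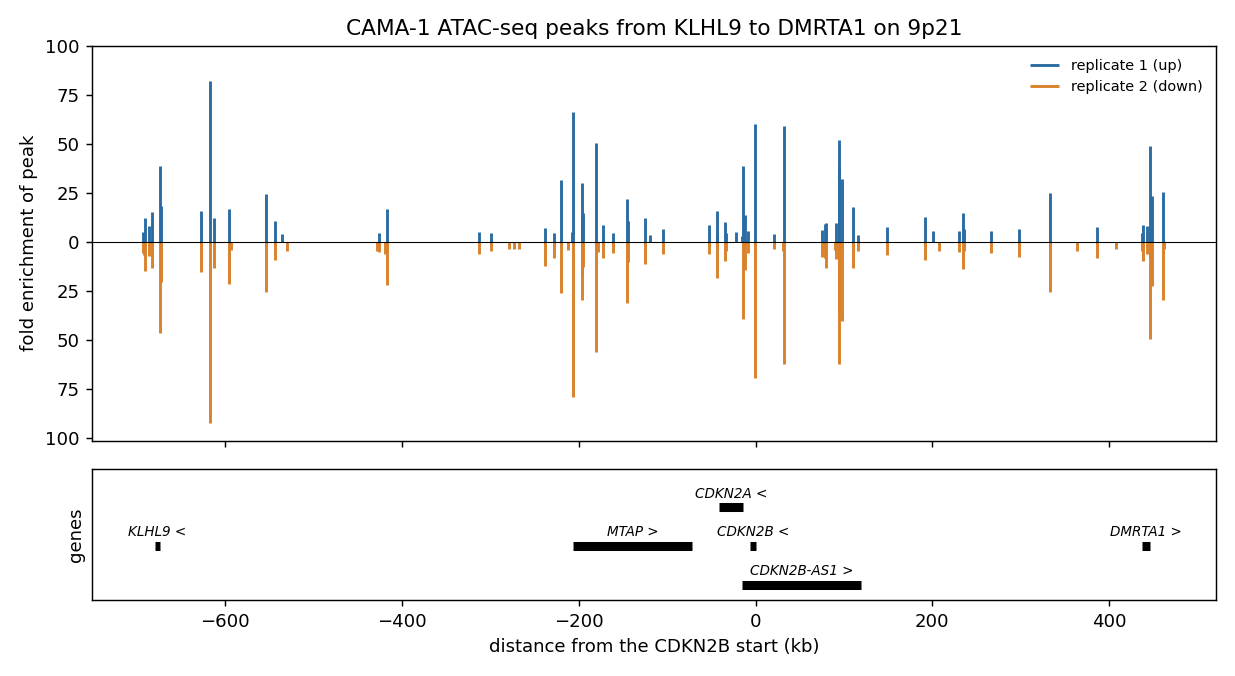
Peaks along 9p21 by distance from the CDKN2B start in kb (horizontal axis) and fold enrichment (vertical axis, replicate 1 upwards, replicate 2 downwards), above the 5 genes of 9p21 and CDKN2B-AS1, with arrowheads for the strand. Both replicates have peaks at every gene, and the longest stretch without peaks, of 104.7 kb, lies between KLHL9 and MTAP.

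**Figure D4:**
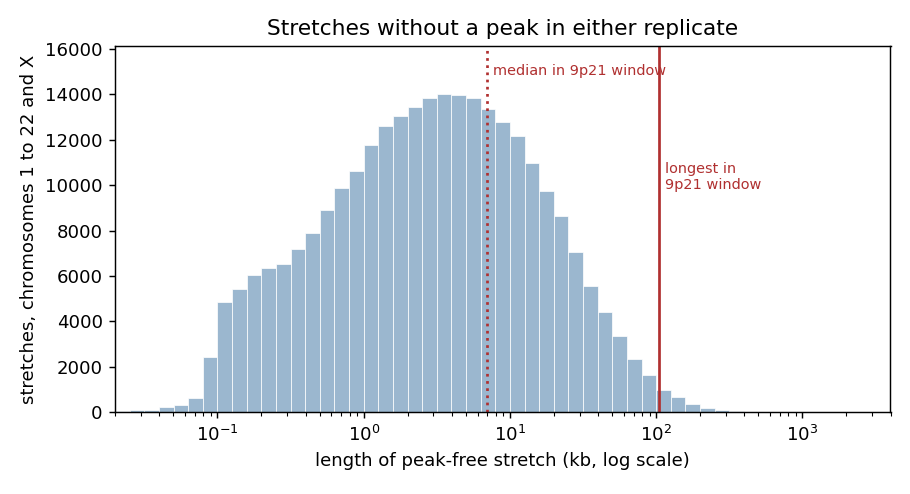
Number of stretches without a peak in either replicate (vertical axis) by their length in kb (horizontal axis, log scale) on chromosomes 1 to 22 and X. The solid line marks the longest stretch in the 9p21 window, 104.7 kb, which 2161 of 278809 stretches reach, and the dotted line marks the median in the window, 6.92 kb.

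The strongest region in the window lay at none of the 10 genes. It was 433 bp wide (chr9:21392259-21392691), within the annotated bounds of the long noncoding RNA gene MIR31HG and 57071 bp from the KLHL9 start, and had a fold enrichment of 81.9 in replicate 1 and 92.7 in replicate 2 (87.3 ± 7.59, SD, n = 2). It lay 7077 bp from the start of IFNA2, an interferon gene. The MTAP and CDKN2B starts followed. This region was singled out after its values were seen.

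CDKN2B-AS1 held 15 regions called in both replicates, including those over the p14ARF and CDKN2B starts. Away from starts, the strongest was chr9:22041795-22042226, 32705 bp upstream of the CDKN2B start, with 59.1 and 62.1 (60.6 ± 2.12, SD, n = 2). It was near the CDKN2B start in replicate 1, at 59.1 beside 60.3, and lower in replicate 2, at 62.1 beside 69.4. Regions near the far end of the gene followed, at 94113, 94904 and 98219 bp from the CDKN2B start, with 38.9 and 36.3, with 52.2 and 62.4, and with 32.2 and 40.5. The strongest of these 3, chr9:22103850-22104568, overlapped the values of the region at 32705 bp.

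The 300 bases about the midpoint of the strongest distal region of the 10 loci and CDKN2B-AS1, of 74 such regions, are shown because its peak was near that of the CDKN2B promoter although it lay over 1 kb from any start of a protein-coding gene (chr9:22041860-22042159, hg38, plus strand). The letters searched were TGANTCA for AP-1 (found in 14.5% of such windows at 182848 distal regions of the genome), TGTTTAC (8.01%) and TGTTTGC (8.98%) for forkhead factors, AGATAA for GATA factors (15.5%), GCCNNNGGC for AP-2 (13.7%), AACCNGTT for grainyhead factors (3.90%), the estrogen response element (0.0990%) and the core of the CTCF motif (5.87%), on either strand. None was found in it, so it carries no capitals.
CDKN2B-AS1, distal region: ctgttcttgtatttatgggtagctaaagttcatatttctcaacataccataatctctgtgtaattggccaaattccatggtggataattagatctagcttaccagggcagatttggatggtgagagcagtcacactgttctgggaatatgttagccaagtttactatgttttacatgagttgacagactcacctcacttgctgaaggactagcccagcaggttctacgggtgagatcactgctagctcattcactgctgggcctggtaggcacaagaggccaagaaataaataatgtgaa

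In the MTAP gene, the strongest region away from the start lay in an intron (chr9:21828909-21829622), 25459 bp from the nearest start, with 50.6 and 55.9 (53.3 ± 3.77, SD, n = 2). Its 300 bases held 1 match to the AP-1 letters, while the window of the DMRTA1 last-exon region held 3 matches to the GATA letters and that of the region 2862 bp upstream of CDKN1C held 1 match to the CTCF core. The 300 bases of the CDKN1A intron region, which is 1208 bp wide, held none of the letters searched.

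The replicates were close at these loci. After joining the loci that overlap (those of CDKN2A, CDKN2B and MTAP share regions), 8 loci of 608130 bases held 121 regions, of which 95 were called in both replicates, 14 in replicate 1 only and 12 in replicate 2 only. Of the peaks of replicate 1, 87.2% were found again in replicate 2 (95 of 109, 95% exact binomial interval 79.4% to 92.8%), beside 90.2% of all its peaks. Of the peaks of replicate 2, 89.0% were found again (97 of 109, interval 81.6% to 94.2%), beside 84.7% of all its peaks. Regions called in a single replicate were weak, at most 6.44 in replicate 1 and 5.09 in replicate 2.

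Over the 95 regions, the fold enrichment of the replicates had a Pearson correlation of 0.984 and a Spearman correlation of 0.962, as a description across regions of the same libraries. The ratio of replicate 2 to replicate 1 had a median of 0.985 (range 0.701 to 1.62), beside 1.02 over all regions. In the 9p21 window 40 of 66 regions were higher in replicate 2 (median ratio 1.05), and in the loci on other chromosomes 24 of 61 were (median 0.961). The TSS peaks of all 5 genes on 9p21 were higher in replicate 2, by ratios of 1.02 for CDKN2A to 1.21 for KLHL9. Elsewhere, those of CDKN2C (1.11) and CDKN1B (1.07) were also higher in replicate 2. Those of CDKN2D (0.845), CDKN1A (0.935) and CDKN1C (0.943) were lower. The share of all regions that were higher in replicate 2 is not given here. What sets the ratio of replicate 2 to replicate 1 was not tested.

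**Figure D5:**
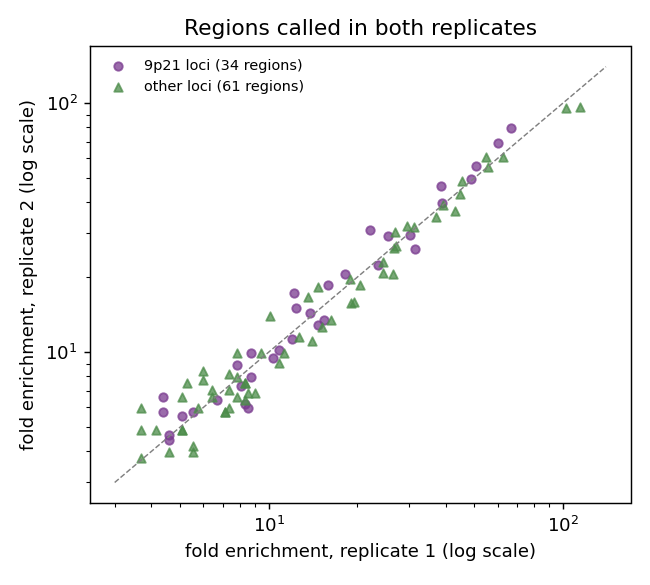
Fold enrichment in replicate 1 (horizontal axis, log scale) against replicate 2 (vertical axis, log scale) for the 95 regions called in both replicates, with circles for the loci on 9p21, triangles for the others and a dashed line where both are equal. The regions follow the line from about the threshold of calling up to CDKN2D at 114.4 and 96.6.

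The other genes that control G1 were counted in the same way. Of 20 such genes, 19 had a TSS peak in both replicates, beside 79.3% of all protein-coding genes. CCND2, the gene of cyclin D2, had none. The median of the 19 was 74.3 in replicate 1 and 68.5 in replicate 2. CCND1, the gene of cyclin D1, the partner of CDK4 and CDK6, reached 257 and 258, and CKS1B, which takes part in the degradation of p27, reached 260.5 and 232. E2F3, a transcription factor that the retinoblastoma protein holds in check, reached 222.5 and 195. The kinase genes CDK4, at 55.0 and 63.5, and CDK6, at 74.3 and 77.4, lay in the range of CDKN2C, CDKN2B and MTAP. The kinase gene CDK2, at 31.3 and 31.2, lay below CDKN2A in both replicates.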

How the data were processed

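ATAC-seq of CAMA-1 was analysed in 2 biological replicates of 1 condition. The submitters' processing notes name Trim Galore 0.6.5, Bowtie2 2.3.5.1 and MACS2 2.2.6 with hg38, and each replicate had its own peak list. The columns deposited by the authors were a score, the fold enrichment as a ratio to background, the −log10 p-value and the −log10 q-value of each peak. Settings of MACS2 and the treatment of duplicate reads are not given in the sources used here. The lists held neither read counts nor summits, and no model for counts was fitted. Which weak peaks pass depends on the depth of each library.

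The fold enrichment was read as (height + 1) / (background + 1), and its step gave the height in stacked reads (100% of values were whole multiples of a step). Peaks were joined into regions where they shared at least 1 bp. Starts and genes came from GENCODE release 44, promoters from RefSeq. Regions more than 1 kb from any start of a protein-coding gene were called distal. The genes named are the 10 members, the genes beside the longest stretch without peaks, fixed lists of G1 control genes and cell type markers (a marker of another cell type is not reported here), and genes whose starts share or lie near a region described here. Among the last, MIR31HG, IFNA2, KRI1, AP1M2 and SLC22A18 were named after the values were seen. The members and lists were chosen with earlier results of these data known. Functions were tested on simulated data. Python 3.11.15, numpy 2.4.6, scipy 1.17.1, matplotlib 3.10.9 and pysam 0.24.0 were used. Results were recomputed with flanks of 10 and 50 kb, with TSS distances of 100 bp and 3 kb, with only the most 5′ TSS, with a minimum −log10 q of 10, with the 50000 strongest peaks, with a reciprocal overlap of 50% and without each replicate.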

Additional observations from a re-analysis of the deposited data

How the results depend on the processing

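Of 98 values recomputed under an alternative, 91 stayed within a set tolerance of the main value, 7 moved beyond it and 0 reversed. All were counts, lengths, shares, fold enrichments or percentiles, which have no sign, so none could reverse. The tolerance was 1.5 times for counts and stretch lengths, the 95% interval for shares of peaks, and 1 SD of the replicates for fold enrichment and percentiles. Leaving out a replicate cannot move the mean of 2 replicates by 1 SD, so those checks of fold enrichment could not fail. Percentiles by −log10 q equalled those by fold enrichment for all 10 genes, so they added no check. Within the tolerance, the loci held 67 regions called in both replicates with flanks of 10 kb and 141 with flanks of 50 kb, as the flanks set the length searched. When each list was limited to its 50000 strongest peaks, the loci held 24 regions called in both in place of 95, and the longest stretch without peaks that touched the 9p21 window was 618.7 kb, from just past DMRTA1 outwards, with 496 stretches of the genome at least as long. This list holds fewer peaks by construction. CDKN1C and DMRTA1 then had no TSS peak (8 of 10 genes had one, beside 61.4% of all protein-coding genes). At a −log10 q of at least 10, 94.1% of the peaks of replicate 1 and 94.3% of those of replicate 2 in the loci were found again. The TSS peak of CDKN1C became 43.9 within 3 kb of a start, and that of DMRTA1 4.51 within 100 bp.

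Without replicate 1, the longest stretch was 104.7 kb, at nearly the same place as in the main result. Without replicate 2 it was a different stretch, of 110.1 kb (chr9:21473437-21583496), which did not overlap the main one. The longest was 117.2 kb with only regions called in both replicates, and 124.2 kb at a −log10 q of at least 10. Both of these also lay left of the main one. With each replicate left out in turn, stretches at least as long numbered 2335 to 2437 and coding genes with a TSS peak 16050 to 16147. The median TSS peak of the 10 genes was then 50.0 to 54.8 (main value 52.4). No paired analysis was possible because there was a single condition. The peak lists do not give the depth, and a peak that is missing from 1 list may lie just under its threshold.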

Other observations

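Around 9p21, the megabase from 21 to 22 Mb of chromosome 9 held 58 regions called in both replicates, close to the median of 59 over 2696 megabases of the genome (quartiles 32 and 102). The megabase from 22 to 23 Mb, with CDKN2B and DMRTA1, held 35, that from 23 to 24 Mb held 21 and that from 24 to 25 Mb held 15. Their median fold enrichment in replicate 1 was 12.4, 8.97, 10.4 and 7.82 in that order. In replicate 2 it was 13.2, 8.85, 10.4 and 9.29, so the lowest megabase differed between the replicates. On either side, the megabase from 20 to 21 Mb held 31 regions and that from 25 to 26 Mb held 24.

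By width, the region at the CDKN2A p14ARF start, of 2431 bp, was wider than 99.0% of all regions called in both replicates. Those of CDKN2C, MTAP and CDKN2D measured 1541, 1536 and 1532 bp, while that of DMRTA1 measured 296 bp, wider than 34.1%.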
